A study of Mus musculus with 8 samples.

Results

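The small leucine-rich proteoglycans (SLRPs) are secreted core proteins built from leucine-rich repeats, and the genes named here were chosen from the family by name: *Dcn*, *Bgn*, *Aspn*, *Ecm2*, *Lum*, *Fmod*, *Prelp*, *Omd*, *Ogn* and *Podn*. These are 10 of the 31053 genes counted. All 10 had at least 1 count, and 9 of them were among the 10181 genes with enough counts to be tested, *Omd* being the exception. RNA was sequenced from fibro/adipogenic progenitors (FAPs), mesenchymal cells of the muscle interstitium, taken from the hind limb muscles of *mdx* mice (C57BL/10ScSn-Dmdmdx/J, which lack dystrophin) at 45 days of age. FAPs were sorted as cells negative for CD45, CD31 and integrin alpha-7 and positive for SCA-1, and split by the amount of SCA-1 on the surface into SCA1-High-FAPs and SCA1-Low-FAPs. Each cell state gave 4 libraries (replicates 1 to 4) after 5 days of culture in growth medium (GM). Both cell states carry the *mdx* mutation and both were cultured, so the libraries hold no wild type cells and no cells taken directly from the muscle.

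SLRPs lie between the cells and on the surface of collagen fibrils, where several of them set how fibrils grow in width and pack. Many carry chondroitin, dermatan or keratan sulfate chains, and some bind growth factors such as TGF-beta and hold them in the matrix. In skeletal muscle they belong to the interstitial connective tissue, which expands in dystrophy, and FAPs are among its main producers.

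The libraries were made from the 3′ ends of mRNAs, so that a transcript gives about the same number of reads whatever its length, and levels are given as CPM (counts per 1000000 gene counts, with library totals scaled by TMM), which can be set side by side between genes. Depth ran from 1880561 to 3985656 gene counts per library, and 3 counts correspond to between 0.788 and 1.625 CPM. Reads aligned to more than one position, which were not counted, made up a larger share of all reads in every SCA1-Low-FAPs library (40.8% to 43.3%) than in any SCA1-High-FAPs library (37.5% to 39.7%). *Ly6a*, the gene of SCA-1, ran against the sort after culture: it was at 488.6 to 913.6 CPM in SCA1-High-FAPs and at 1009 to 1150 CPM in SCA1-Low-FAPs, which passed (log2 fold change 0.61, SE 0.17, adjusted *p* = 0.0341, edgeR). The sort was on surface protein and preceded the RNA by the days of culture, and the groups are called by their sort labels throughout. *Pdgfra*, the receptor that marks FAPs, was at 156.2 to 289.4 CPM in the 8 libraries. *Col15a1*, which many muscle FAPs express, was called as higher in SCA1-High-FAPs (−2.98, edgeR adjusted *p* = 0.00103). *Cd34*, also listed as a FAP marker, was at 4.875 to 30.77 CPM and was not called (0.57, edgeR adjusted *p* = 0.520). Of the same list, *Pi16* had 13 counts in all libraries together and *Dpp4* was at 0 in all of them. *Pax7*, *Myf5* and *Myod1* (myogenic), *Emcn* (endothelial) and *Adgre1* and *Itgam* (leucocyte) were also at 0, and the summed CPM of each of these 3 marker lists stayed at or below 12.5 in every library. Adipocyte markers differed in level between the cell states: the summed CPM of *Adipoq*, *Plin1*, *Cfd*, *Fabp4* and *Lep* was 1016 to 5321 in SCA1-High-FAPs and 107.9 to 618.1 in SCA1-Low-FAPs, with *Lep* at 0. Of the 4 adipocyte markers tested, none overlapped between the groups, where 14.1% of all tested genes did not overlap. Only *Adipoq* was called (edgeR adjusted *p* = 0.0352), and *Cfd* (0.0534), *Plin1* (0.0751) and *Fabp4* (0.101) did not pass. Proliferation markers were higher in the other state, with sums from 420.9 to 560.3 CPM in SCA1-High-FAPs and from 719 to 1091 CPM in SCA1-Low-FAPs. All 4 of them were called, where 7.68% of all tested genes were called. The marker sums stand beside each SLRP result given here, and their part in those results was not tested. In such bulk samples, fewer cells that express a gene and less of its mRNA in each cell cannot be told apart.

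The SLRP genes sit in small chromosomal groups (GRCm38, which is mm10, with GENCODE M21 annotation). *Ecm2* (chromosome 13, 49504810 to 49532789), *Aspn* (49544443 to 49567565), *Omd* (49582462 to 49592822) and *Ogn* (49608046 to 49624501) lie in a row on the plus strand of chromosome 13, all inside the span of *Cenpp* on the opposite strand. *Dcn* (97479609 to 97518143) and *Lum* (97565128 to 97572703) are neighbours on the plus strand of chromosome 10. *Prelp* (133910304 to 133921414, minus strand) and *Fmod* (134037254 to 134048277, plus strand) lie near each other on chromosome 1, and *Podn* (chromosome 4, 108014791 to 108096445, minus strand) and *Bgn* (chromosome X, 73483602 to 73495933, plus strand) stand alone in the family. The promoters of 3 genes of the row on chromosome 13 and of *Podn* are shown, because *Ecm2*, *Ogn* and *Podn* were called between the cell states while *Aspn*, which lies between the first pair, was not. Each sequence is the RefSeq window of 300 bases on GRCm38.p6, from 250 bases before to 50 bases after the start, read 5′ to 3′ along the gene: chr13:49504560-49504859 (plus strand) for *Ecm2*, chr13:49544193-49544492 (plus strand) for *Aspn*, chr13:49607765-49608064 (plus strand) for *Ogn* and chr4:108031905-108032204 (minus strand) for the first of the 2 windows of *Podn*. Capitals mark matches, on either strand, to the motif letters that were searched.
Ecm2: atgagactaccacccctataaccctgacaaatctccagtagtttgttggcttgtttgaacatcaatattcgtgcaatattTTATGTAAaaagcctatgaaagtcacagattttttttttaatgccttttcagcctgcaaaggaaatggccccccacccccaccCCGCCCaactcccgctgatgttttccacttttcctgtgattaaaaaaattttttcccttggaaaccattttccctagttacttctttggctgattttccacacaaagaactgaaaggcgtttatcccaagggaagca
Aspn: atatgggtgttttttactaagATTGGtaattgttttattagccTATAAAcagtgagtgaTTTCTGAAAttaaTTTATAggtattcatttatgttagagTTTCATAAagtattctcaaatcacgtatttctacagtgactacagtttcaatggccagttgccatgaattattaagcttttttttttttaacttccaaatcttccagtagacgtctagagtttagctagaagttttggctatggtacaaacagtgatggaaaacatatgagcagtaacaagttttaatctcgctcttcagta
Ogn: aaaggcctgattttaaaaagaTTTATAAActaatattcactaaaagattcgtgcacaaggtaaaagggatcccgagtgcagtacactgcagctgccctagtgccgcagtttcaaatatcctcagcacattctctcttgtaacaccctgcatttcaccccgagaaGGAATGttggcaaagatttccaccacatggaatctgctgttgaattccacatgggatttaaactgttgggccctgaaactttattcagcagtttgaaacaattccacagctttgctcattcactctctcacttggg
Podn: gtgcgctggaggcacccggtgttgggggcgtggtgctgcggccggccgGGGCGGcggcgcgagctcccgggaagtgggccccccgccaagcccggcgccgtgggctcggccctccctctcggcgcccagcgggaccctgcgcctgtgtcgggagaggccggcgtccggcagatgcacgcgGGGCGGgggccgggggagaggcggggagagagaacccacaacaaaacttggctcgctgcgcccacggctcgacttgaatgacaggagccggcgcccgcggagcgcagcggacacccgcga

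Windows were at hand for 8 of the 10 genes, and *Dcn* and *Lum* were not among them. The promoters differed widely in composition, from 31.0% G and C in *Aspn*, 37.7% in *Omd*, 41.0% in *Ecm2* and 42.3% in *Ogn* to 63.7% in *Bgn* and 77.0% in *Podn*, where the median of all 32851 windows was 52.7%. The first *Podn* window, to which the 77.0% refers, held 41 CpG pairs, against 4 in *Ecm2*, 3 in *Aspn*, 4 in *Ogn* and 9 in *Bgn*. The second *Podn* window had 63.0% G and C, 7 CpG pairs and no match to any motif searched. Both *Podn* windows, from RefSeq, lie inside the GENCODE span of the gene given above. The GC box (GGGCGG), which Sp-family factors bind, was found in *Ecm2*, *Podn* and *Bgn*, and in 35.7% of all windows. The TATA box letters (TATAAA) were in *Aspn* and *Ogn*, and in 13.6% of all windows, and the pair of matches in *Ogn* overlaps. The C/EBP-type letters (TTNNGNAA), 1 form of the site of a family of factors that act in adipogenesis, were in *Ecm2*, *Aspn*, *Prelp* and *Fmod* and in 40.7% of all windows, and 2 of the matches in *Aspn* overlap. CCAAT was in *Aspn*, *Prelp* and *Fmod* (37.4% of all windows), and the TEAD-type letters (GGAATG) were in *Ogn* alone of the 8 genes (14.7% of all windows). The AP-1 letters (TGANTCA; 7.81% of all windows) and the SMAD letters (GTCTAGAC; 0.213%) were in none of these windows. No motif was common to the windows of *Ecm2*, *Ogn* and *Podn*, the called genes that had a window, though *Ecm2* and *Podn* both held the GC box. Each match describes letters and not binding.

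In all, 4 of the 9 tested SLRP genes were called between the cell states, *Dcn*, *Podn*, *Ecm2* and *Ogn*, and all 4 were higher in SCA1-High-FAPs. A gene was called when its edgeR adjusted *p*-value was under 0.05 and its log2 fold change was larger than 0.5 in either direction. SCA1-High-FAPs are the denominator of every log2 fold change, so that a negative value is a higher level in them. Over all tested genes, 7.68% were called, with 4.36% higher in SCA1-High-FAPs and 3.32% higher in SCA1-Low-FAPs. The same 4 genes were the members whose CPM did not overlap between the groups, which was so for 14.1% of all tested genes. The other 5 tested members, *Lum*, *Aspn*, *Prelp*, *Bgn* and *Fmod*, did not pass, and none of the 9 was called as higher in SCA1-Low-FAPs. The median log2 fold change of the 9 tested members was −1.22, beside 0.0003 for all tested genes.

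**Figure D1:**
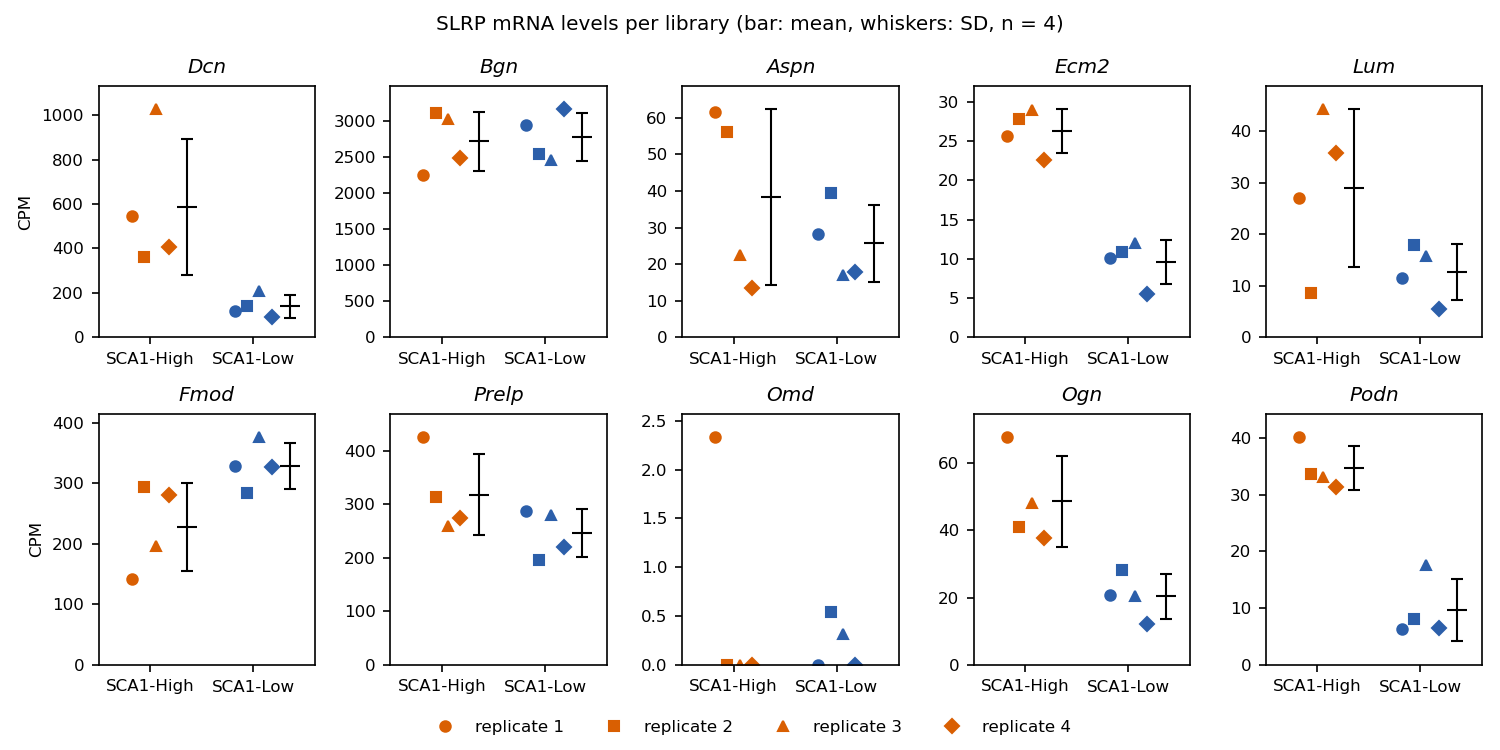
Level in CPM (vertical axes, each with its own range from 0) of each SLRP gene in the 4 SCA1-High-FAPs (orange) and 4 SCA1-Low-FAPs (blue) libraries, with the mean and SD of each group beside the points and the marker shape giving the replicate number (no mean is drawn for *Omd*, which has 7 counts in all). The points of *Dcn*, *Ecm2*, *Ogn* and *Podn* do not overlap between the groups, whereas those of *Bgn* lie between 2256 and 3169 CPM in both.

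Class I holds *Dcn* and *Bgn*, which are the most alike of the family, with *Aspn* and *Ecm2*. *Dcn* encodes decorin, which binds fibrillar collagen and TGF-beta and carries a single chondroitin or dermatan sulfate chain. It was at 545.6, 363.5, 1030 and 406.5 CPM in replicates 1 to 4 of SCA1-High-FAPs and at 118.3, 140.3, 207.8 and 89.29 CPM in SCA1-Low-FAPs. Every SCA1-High-FAPs library lay above every SCA1-Low-FAPs library, with replicate 3 the highest of each group. The means were 586.3 ± 305.6 and 138.9 ± 50.46 CPM (SD, n = 4 each), which is 4.22-fold higher in SCA1-High-FAPs, and the log2 fold change was −2.08 (SE 0.39, edgeR adjusted *p* = 0.0167). Without SCA1-Low-FAPs replicate 2 the adjusted *p*-value of *Dcn* was 0.0504 and without SCA1-Low-FAPs replicate 4 it was 0.0537, neither of which passes, with log2 fold changes of −2.08 and −1.92.

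*Bgn* encodes biglycan, the closest relative of decorin, and was the most abundant SLRP mRNA in every library. Its levels were 2256, 3106, 3023 and 2487 CPM in SCA1-High-FAPs and 2951, 2549, 2462 and 3169 CPM in SCA1-Low-FAPs. The groups overlapped over nearly their whole range. The means were 2718 ± 412.4 and 2783 ± 334.3 CPM (SD, n = 4 each) and the log2 fold change was 0.03 (SE 0.15, edgeR adjusted *p* = 0.936), with a sign that turned when 1 of 3 particular libraries was left out (range −0.043 to 0.11).

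The ratio of *Dcn* to *Bgn* sets this related pair side by side within each library. There were 24.2, 11.7, 34.1 and 16.4 *Dcn* counts per 100 *Bgn* counts in SCA1-High-FAPs and 4.01, 5.51, 8.44 and 2.82 in SCA1-Low-FAPs, without overlap. On the log2 scale of CPM with 0.5 added, the ratio was −2.33 ± 0.67 for SCA1-High-FAPs against −4.38 ± 0.67 for SCA1-Low-FAPs (SD, n = 4 each), a difference of −2.05. The two-sided exact permutation test gave *p* = 0.0286, the smallest that the 70 assignments allow, and 0.0571 after Benjamini-Hochberg adjustment over the 2 ratios tested, which does not pass.

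*Ecm2* encodes a matrix protein with leucine-rich repeats beside a von Willebrand factor type C domain, and it is counted with the family for its repeats. It was at 25.72, 27.86, 29.03 and 22.6 CPM in SCA1-High-FAPs and at 10.09, 10.83, 11.98 and 5.515 CPM in SCA1-Low-FAPs. Its spread within SCA1-High-FAPs was the smallest of the family (coefficient of variation 10.7%), and the groups were well apart. The mean was 2.74-fold higher in SCA1-High-FAPs, and the log2 fold change was −1.46 (SE 0.32, edgeR adjusted *p* = 0.00935). *Ecm2* was called in all 8 fits that left out 1 library.

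*Aspn* encodes asporin, which binds collagen and has a run of aspartates that binds calcium. Its levels were 61.72, 56.17, 22.39 and 13.49 CPM in SCA1-High-FAPs and 28.36, 39.54, 17.03 and 17.86 CPM in SCA1-Low-FAPs. Replicates 1 and 2 were the high libraries of both groups, and SCA1-High-FAPs replicate 4 was the lowest of all 8. *Aspn* had the widest spread of the tested members in SCA1-High-FAPs (coefficient of variation 62.6%), and its log2 fold change of −0.60 (SE 0.45, edgeR adjusted *p* = 0.503) did not pass. Of the row on chromosome 13, only *Aspn* shares exon bases with *Cenpp* on the opposite strand, and these are 7 bases. *Cenpp* itself had 239 counts in all (log2 fold change 0.53, adjusted *p* = 0.484, edgeR).

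Class II holds *Lum*, *Fmod*, *Prelp* and *Omd*, whose core proteins bind collagen and in part carry keratan sulfate. *Lum* encodes lumican, which lies on collagen fibrils. It was at 27.12, 8.537, 44.37 and 35.73 CPM in SCA1-High-FAPs and at 11.54, 17.87, 15.77 and 5.515 CPM in SCA1-Low-FAPs. SCA1-High-FAPs replicate 2, with 19 counts, lay within the range of SCA1-Low-FAPs, and the other 3 libraries lay above it. The log2 fold change was −1.22 (SE 0.45, edgeR adjusted *p* = 0.116). Without SCA1-High-FAPs replicate 2 it was −1.51 and passed (edgeR adjusted *p* = 0.022). Of the 8 fits that left out 1 library, this was the only 1 in which *Lum* passed. The others gave edgeR adjusted *p*-values of 0.111 to 0.28.

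*Fmod* encodes fibromodulin, which binds collagen at the same site as lumican. Its levels ran the other way, at 141.2, 293.9, 195.7 and 280.7 CPM in SCA1-High-FAPs and 327.8, 283.8, 377.1 and 327.5 CPM in SCA1-Low-FAPs. Only SCA1-High-FAPs replicate 2 lay above a SCA1-Low-FAPs library, that of replicate 2. The log2 fold change of 0.53 (SE 0.20, edgeR adjusted *p* = 0.119) did not pass. With no filter on low counts beyond 1 count in all, which changes the fit, both *Lum* (adjusted *p* = 0.0288) and *Fmod* (adjusted *p* = 0.0327) passed in edgeR, in opposite directions.

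The ratio of *Lum* to *Fmod* differed less clearly than that of *Dcn* to *Bgn*. There were 19.2, 2.91, 22.7 and 12.7 *Lum* counts per 100 *Fmod* counts in SCA1-High-FAPs and 3.52, 6.30, 4.18 and 1.68 in SCA1-Low-FAPs. SCA1-High-FAPs replicate 2 again fell inside the range of the other group. The log2 ratio was −3.12 ± 1.32 and −4.76 ± 0.76 (SD, n = 4 each), a difference of −1.64 with *p* = 0.114 by the two-sided exact permutation test and 0.114 after adjustment over the 2 ratios. Without SCA1-High-FAPs replicate 2 the difference was −2.28, with an exact permutation *p* = 0.0286, not adjusted. Of the 8 comparisons that left out 1 library, this was the only 1 under 0.05. The others gave exact permutation *p*-values of 0.114 to 0.2.

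*Prelp* encodes the proline and arginine-rich member of the family, which binds heparan sulfate and collagen. It was at 426.9, 313.2, 260.4 and 273.8 CPM in SCA1-High-FAPs and at 288.4, 196.1, 280.7 and 220.3 CPM in SCA1-Low-FAPs. The groups overlapped in the middle of their ranges. The log2 fold change was −0.37 (SE 0.18, edgeR adjusted *p* = 0.242). *Prelp* shares 350 exon bases with *Gm15851* on the opposite strand, to which no count was assigned.

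*Omd*, the gene of osteomodulin, a keratan sulfate proteoglycan of bone, was at the limit of detection. It had 5 counts in SCA1-High-FAPs replicate 1, a single count each in SCA1-Low-FAPs replicates 2 and 3, and none in the other 5 libraries. A count of 0 allows up to 3 counts, for counting error only, so a level under 0.788 to 1.625 CPM, according to the library, was not detectable and the groups could not be compared.

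The remaining classes are represented by *Ogn* (class III), which encodes osteoglycin or mimecan, a small keratan sulfate proteoglycan, and by *Podn* (class V), which encodes podocan, a collagen-binding member with longer repeats. *Ogn* was at 67.8, 40.89, 48.1 and 37.55 CPM in SCA1-High-FAPs and at 20.67, 28.17, 20.5 and 12.08 CPM in SCA1-Low-FAPs. The lowest SCA1-High-FAPs library lay above the highest SCA1-Low-FAPs library. Its log2 fold change was −1.27 (SE 0.29, edgeR adjusted *p* = 0.0108), with a mean 2.39-fold higher in SCA1-High-FAPs, and it was called in all 8 fits that left out 1 library.

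*Podn* had the lowest adjusted *p*-value of the family. Its levels were 40.21, 33.7, 33.17 and 31.35 CPM in SCA1-High-FAPs and 6.249, 8.125, 17.66 and 6.565 CPM in SCA1-Low-FAPs. The SCA1-High-FAPs libraries lay close together (coefficient of variation 11.2%), while SCA1-Low-FAPs replicate 3 stood above the other 3 of its group. The mean was 3.59-fold higher in SCA1-High-FAPs, and the log2 fold change was −1.82 (SE 0.34, edgeR adjusted *p* = 0.00311). It was called in all 8 fits that left out 1 library, with log2 fold changes from −2.32 to −1.66. The summed adipocyte markers were also highest in replicate 3 among the SCA1-Low-FAPs (618.1 CPM, against 107.9 to 228 in the other 3). The proliferation markers were lowest in it (719 CPM, against 965.8 to 1091). Among the SCA1-High-FAPs, the adipocyte sum ran from 1016 to 5321 CPM and *Podn* from 31.35 to 40.21 CPM, both highest in replicate 1 and lowest in replicate 4. Whether the marker sums and *Podn* go together was not tested. The span of *Podn* overlaps that of *Scp2*, the gene of sterol carrier protein 2, on the same strand, without shared exon bases. *Scp2* was called in the same direction with a smaller change (log2 fold change −0.88, SE 0.25, edgeR adjusted *p* = 0.0415).

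**Figure D2:**
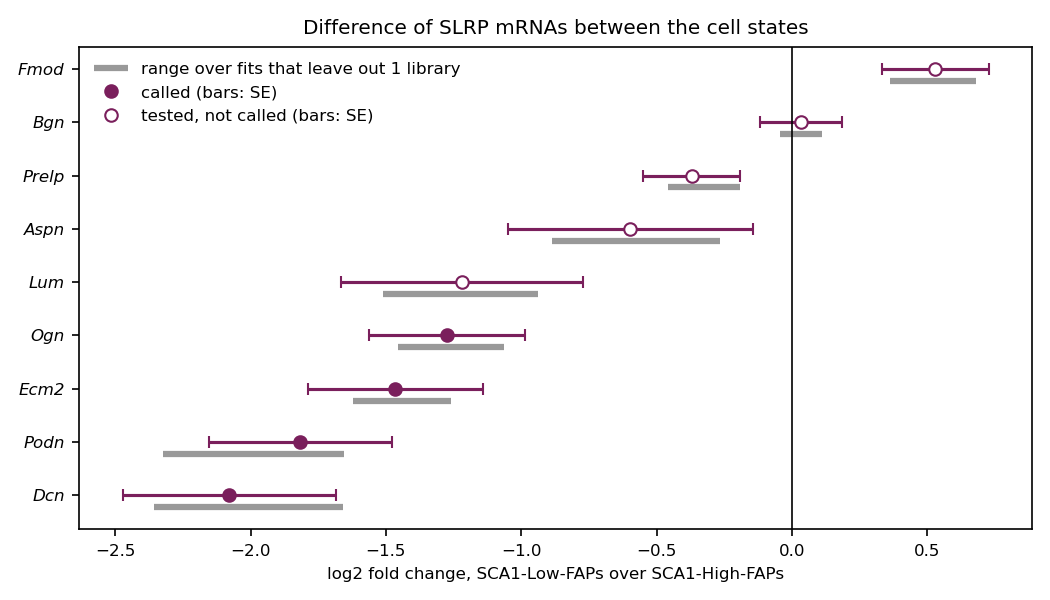
Log2 fold change, with SCA1-High-FAPs as the denominator (horizontal axis), for the 9 tested SLRP genes, with SE as bars, filled points for the called genes, and in grey the range of the value over the 8 fits that leave out 1 library. The 4 called genes lie between −2.08 and −1.27 and their ranges stay below 0, whereas the range of *Bgn* spans 0.

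The members covered a wide span of levels, and their order differed between the cell states. In SCA1-High-FAPs the order by mean CPM was *Bgn*, *Dcn*, *Prelp*, *Fmod*, *Ogn*, *Aspn*, *Podn*, *Lum*, *Ecm2* and *Omd*. In SCA1-Low-FAPs it was *Bgn*, *Fmod*, *Prelp*, *Dcn*, *Aspn*, *Ogn*, *Lum*, *Podn*, *Ecm2* and *Omd*, so that *Dcn* stood at rank 2 in one state and at rank 4 in the other. Of the neighbours in this order, *Bgn* and the next gene, the genes at ranks 4 and 5, and *Ecm2* and *Omd* were apart in all libraries of a state, and the ranges of all other neighbours overlapped. Among the 10181 tested genes, *Bgn* ranked 25 by mean CPM in SCA1-High-FAPs, with rank 24 for SCA1-Low-FAPs, and *Dcn* ranked 213 and 1394.

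As a share of the counts of the 10 members, *Bgn* made up 67.4% ± 4.73 in SCA1-High-FAPs, with 77.7% ± 4.15 for SCA1-Low-FAPs (SD, n = 4 each), and the ranges overlapped. *Dcn* made up 14.3% ± 5.81 and 3.96% ± 1.64 (SD, n = 4 each), and its lowest share in SCA1-High-FAPs, 8.57%, was above its highest in SCA1-Low-FAPs, 6.09%. *Fmod* took the reverse course, with 3.93% to 7.82% in SCA1-High-FAPs and 8.50% to 11.1% in SCA1-Low-FAPs. The shares add up to the whole, so a lower share of one gene raises those of the others, and they were not tested. The 10 genes together made up 0.361% to 0.458% of gene counts in SCA1-High-FAPs, where SCA1-Low-FAPs had 0.321% to 0.377%, ranges that overlap. Without *Bgn* the other 9 made up 0.111% to 0.163% and 0.0654% to 0.0969%, ranges that do not. Of these 9, *Dcn* had the highest mean in SCA1-High-FAPs (586.3 CPM, with 138.9 CPM in SCA1-Low-FAPs). The gap need not hold for the rest of the family without *Dcn*, and a sum that leaves out both genes is not given.

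**Figure D3:**
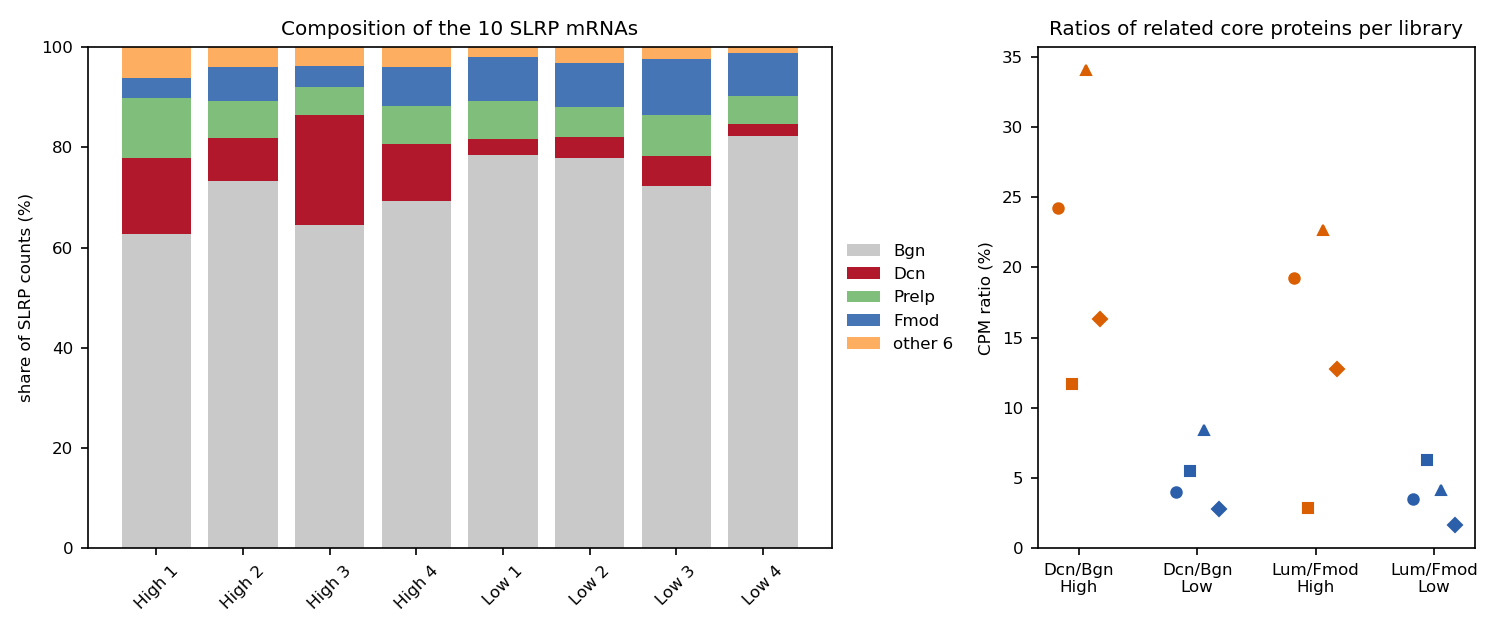
Left, share of the SLRP counts in percent (vertical axis) taken by *Bgn*, *Dcn*, *Prelp*, *Fmod* and the other 6 genes in each library, and right, CPM of *Dcn* as a percent of *Bgn* and of *Lum* as a percent of *Fmod* in each SCA1-High-FAPs (orange) and SCA1-Low-FAPs (blue) library, with marker shapes for replicates 1 (circle), 2 (square), 3 (triangle) and 4 (diamond). *Bgn* takes the largest share in all 8 libraries and *Dcn* takes at least 8.57% in each SCA1-High-FAPs library, above the 6.09% that it reaches at most in SCA1-Low-FAPs.

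Of the 8 SLRP genes outside the 10, most were absent or nearly so. *Epyc* had 0 counts, *Kera* 2, *Chad* 4, *Nyx* 7 and *Chadl* 7 in all libraries together, and *Optc* had 17, of which 10 were in SCA1-High-FAPs replicate 2 and 7 in SCA1-Low-FAPs replicate 4. These are SLRPs of cornea, cartilage and eye. *Podnl1*, the close relative of *Podn*, was tested and its log2 fold change was 0.13 (SE 0.41, edgeR adjusted *p* = 0.907). *Tsku*, the gene of tsukushi, a secreted class IV member, had 155 counts in all but enough counts in too few libraries to be tested. It was at 2.696 to 3.741 CPM in SCA1-High-FAPs and 3.792 to 13.56 CPM in SCA1-Low-FAPs, without overlap and with a 3.41-fold higher mean in SCA1-Low-FAPs. Its counts were 6 to 8 per library in SCA1-High-FAPs and 28, 7, 43 and 47 in SCA1-Low-FAPs.

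The nearest tested genes on either side of each SLRP locus lay at very different distances. On chromosome 10, *Btg1* (log2 fold change −0.60, adjusted *p* = 0.13), 856800 bases before *Dcn*, and *Atp2b1* (0.08, adjusted *p* = 0.819), 1341703 bases after *Lum*, did not pass in edgeR, and they are too far away to describe the surroundings of the pair. On chromosome 13, *Ippk* (−0.61, adjusted *p* = 0.553) and *Nol8* (0.08, adjusted *p* = 0.876) lay 40237 and 28577 bases from the row from *Ecm2* to *Ogn* and did not pass either. The same held for *Atp2b4* (0.17, adjusted *p* = 0.831) and *Btg2* (−0.08, adjusted *p* = 0.962) 109263 and 26893 bases from *Prelp* and *Fmod* on chromosome 1, and for *Haus7* (0.46, adjusted *p* = 0.709) and *Slc6a8* (0.70, adjusted *p* = 0.136), 24558 and 177217 bases from *Bgn* on chromosome X. Genes that overlap a locus were not taken as neighbours, which left out *Cenpp* on chromosome 13 and *Scp2*, called as given above, at *Podn*. Among genes that do not overlap a locus, *Podn* was the one locus with a called neighbour. *Echdc2*, which encodes an enoyl-CoA hydratase domain protein, was called as higher in SCA1-High-FAPs (−1.15, edgeR adjusted *p* = 0.0231) at 68992 bases. *Cpt2*, 91181 bases away on the other side, was not called (−0.77, edgeR adjusted *p* = 0.0765).

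The genes whose pattern over the 8 libraries was nearest to that of *Podn*, *Ecm2* and *Ogn* were found by the root mean square difference of log2 CPM centred on each gene's mean. Nearest to *Podn* were *Gldn* (0.22), which encodes gliomedin, *Klhl24* (0.25) and *Angpt1* (0.26), the gene of the ligand angiopoietin-1. The genes closest to *Ecm2* were *Abi3bp*, a matrix protein gene (0.14), *Col6a2* (0.14) and *Itga1*, the collagen receptor subunit integrin alpha-1 (0.15). For *Ogn* they were *Col6a1* (0.23), *Fgfr2* (0.23) and *Car5b* (0.24). Genes that differ between the groups by a like amount are near each other on this measure by that alone.

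Collagens are the binding partners of most SLRPs, and 5 of the 10 collagen genes listed were called, 4 as higher in SCA1-High-FAPs and 1 as higher in SCA1-Low-FAPs. Over all tested genes 7.68% were called, 4.36% as higher in SCA1-High-FAPs and 3.32% as higher in SCA1-Low-FAPs. The median log2 fold change of the 10 was −0.28. *Col6a2* was at 477.9 to 827.3 CPM in SCA1-High-FAPs and 177.8 to 300.5 CPM in SCA1-Low-FAPs (log2 fold change −1.40, SE 0.19, edgeR adjusted *p* = 0.000585). *Col6a1* (−1.36, adjusted *p* = 0.000672), another chain of collagen VI, and *Col14a1* (−1.35, adjusted *p* = 0.0328), a collagen on the fibril surface, followed in edgeR. *Col3a1*, a fibrillar collagen, was also called (−1.03, adjusted *p* = 0.0294), with ranges of 3950 to 5780 and 1553 to 3951 CPM that touch. *Col12a1*, another collagen of the fibril surface, was higher in SCA1-Low-FAPs (0.81, SE 0.20, edgeR adjusted *p* = 0.0215). *Col1a1*, the main fibrillar collagen, was at 5643 to 8827 CPM and 5031 to 8128 CPM and did not pass (−0.20, SE 0.18, edgeR adjusted *p* = 0.587). The collagen VI chain *Col6a3*, named here after its value was seen, did not pass either (0.255, SE 0.24, edgeR adjusted *p* = 0.603). Its sign was opposite to that of *Col6a1* and *Col6a2*. The collagen count depends on single libraries: it fell to 2 without SCA1-Low-FAPs replicate 1 or replicate 2 and to 3 without SCA1-Low-FAPs replicate 4 or SCA1-High-FAPs replicate 1, 3 or 4.

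Of the enzymes that build the sugar chains of SLRPs, 1 gene was called in each of 2 lists, where 7.68% of all tested genes were called, so these counts say nothing particular of the lists. Of 22 genes of chondroitin and dermatan sulfate synthesis, 18 were tested and 1 was called, with a median log2 fold change of 0.03. This was *Chst15*, a sulfotransferase that acts on chondroitin sulfate, at 13.49 to 25.61 CPM in SCA1-High-FAPs and 2.708 to 9.614 CPM in SCA1-Low-FAPs (log2 fold change −2.07, SE 0.42, edgeR adjusted *p* = 0.00593). Without SCA1-Low-FAPs replicate 3 the count of called genes in this list was 3. *Dse*, the epimerase that turns chondroitin into dermatan sulfate, did not pass (−0.17, SE 0.41, edgeR adjusted *p* = 0.875). Of 8 genes of keratan sulfate synthesis, 4 were tested, with a median of −0.57, and the 1 called was *St3gal1*, a sialyltransferase (−0.98, SE 0.21, edgeR adjusted *p* = 0.00763).

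Of 19 growth factors and receptors that SLRPs bind, 12 were tested and 1 was called, with a median log2 fold change of −0.08, a count near the 7.68% of all tested genes. *Met*, the receptor of hepatocyte growth factor, was at 8.749 to 27.12 CPM in SCA1-High-FAPs and 3.25 to 6.622 CPM in SCA1-Low-FAPs (log2 fold change −1.66, SE 0.46, edgeR adjusted *p* = 0.0324). The number called in this list was 0 without SCA1-High-FAPs replicate 1 or 3 and without SCA1-Low-FAPs replicate 1, 2 or 4, and 2 without SCA1-High-FAPs replicate 2 or SCA1-Low-FAPs replicate 3. *Tgfb1* (−0.26, SE 0.63, adjusted *p* = 0.872) and *Tgfb2* (−0.28, SE 0.24, adjusted *p* = 0.549), which encode ligands that decorin binds, did not pass in edgeR. Of 13 genes of proteases that cut SLRPs and their cofactors, 7 were tested and 0 were called by edgeR or by DESeq2. An unadjusted *p*-value under 0.05 in edgeR was found for 4 of the 7, and for 2164 of all 10181 tested genes. The median of the 7 was −0.41, and without SCA1-Low-FAPs replicate 3 the number called was 2.

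Other proteoglycan genes moved in both directions. Of 25 such core protein genes, 17 were tested and 6 were called, 2 as higher in SCA1-High-FAPs and 4 as higher in SCA1-Low-FAPs, with a median log2 fold change of 0.07. Over all tested genes 7.68% were called, 4.36% and 3.32% in these directions. The balance within the list depended on the setting, with 5 and 4 by DESeq2, 3 and 3 with at least 10 counts in every library, and 4 and 4 without SCA1-Low-FAPs replicate 3. *Prg4*, the gene of lubricin, was at 330.6 to 1101 CPM in SCA1-High-FAPs and 1687 to 3694 CPM in SCA1-Low-FAPs, without overlap (log2 fold change 2.09, SE 0.39, edgeR adjusted *p* = 0.0148). *Cspg4*, the gene of NG2 (2.40, adjusted *p* = 0.0415), *Cd44*, the hyaluronan receptor (1.10, adjusted *p* = 0.0216), and *Gpc1*, a glypican named here after its value was seen (0.86, adjusted *p* = 0.00535), were the others higher in SCA1-Low-FAPs by edgeR. The groups overlapped for *Cspg4*, at 1.348 to 7.013 CPM in SCA1-High-FAPs (3 to 15 counts per library) and 2.523 to 32.3 CPM in SCA1-Low-FAPs. *Gpc3*, another glypican (−1.90, SE 0.36, adjusted *p* = 0.00336), and *Tgfbr3*, the TGF-beta co-receptor betaglycan (−0.79, SE 0.19, adjusted *p* = 0.0171), were higher in SCA1-High-FAPs by edgeR. *Vcan*, the large chondroitin sulfate proteoglycan versican, did not pass (0.30, SE 0.17, edgeR adjusted *p* = 0.330). The number called in this list fell to 3 without SCA1-Low-FAPs replicate 2 or replicate 4.

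**Figure D4:**
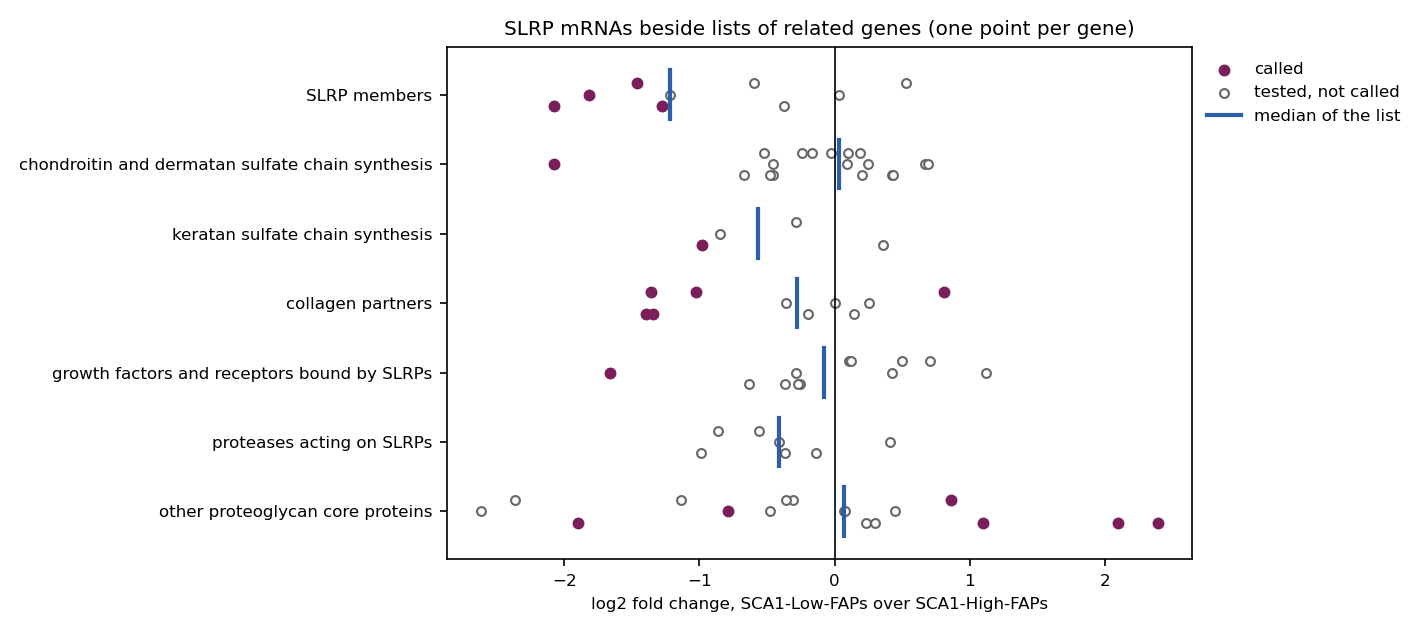
Log2 fold change, with SCA1-High-FAPs as the denominator (horizontal axis), for the tested genes of the SLRP family and of 6 lists of related genes, with 1 point for each gene, filled where called, and a blue bar at the median of each list. The SLRP median is −1.22, and those of the other lists lie between −0.57 and 0.07.

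Markers of tendon and cartilage, tissues rich in *Fmod* and *Comp*, were partly present. *Tnmd*, a tenocyte marker, was at 14.93 to 45.83 CPM in SCA1-High-FAPs and 2.884 to 12.3 CPM in SCA1-Low-FAPs. Neither *Tnmd* (log2 fold change −1.55, edgeR adjusted *p* = 0.053) nor *Thbs4* (0.14, edgeR adjusted *p* = 0.874) passed. *Scx*, the tendon transcription factor, was at 0 in SCA1-High-FAPs and at 0.788 to 8.172 CPM in SCA1-Low-FAPs. *Acan* and *Matn1*, which define cartilage, were at 0 in all libraries. *Sox9*, a transcription factor of cartilage, was at 267.6 to 397.4 CPM in the 8 libraries, most of the summed list, and was not called (−0.31, edgeR adjusted *p* = 0.267), while *Comp* was called as higher in SCA1-High-FAPs (−1.41, edgeR adjusted *p* = 0.00173) and *Col2a1* as higher in SCA1-Low-FAPs, at 5.676 to 12.46 CPM against at most 2.903 CPM (edgeR adjusted *p* = 0.0156). The summed CPM of the tenocyte list was 197.4 to 391.2 in SCA1-High-FAPs and 212.7 to 565.4 in SCA1-Low-FAPs, and that of the cartilage list was 355.9 to 500.1 and 310.4 to 417.5, so both overlapped between the cell states. Of the 2 mural genes tested, *Myh11* was called as higher in SCA1-Low-FAPs (1.85, edgeR adjusted *p* = 0.0232) and *Notch3* as higher in SCA1-High-FAPs (−1.54, edgeR adjusted *p* = 0.0487), and the summed mural list was at 18.96 to 45.5 CPM in the 8 libraries. The part of these markers in the SLRP results was not tested.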

How the data were processed

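RNA-seq was analysed for cultured FAPs of *mdx* mice, separated by high and low SCA-1, with 4 libraries of each cell state. The authors made 3′ mRNA libraries, aligned the reads with STAR to mm10 and assigned them with htseq-count to Ensembl release 93. The deposited values are raw counts per gene, whole numbers without normalisation, and reads aligned to several positions were not counted. The strand setting is not given in the sources used here. Reads on no gene feature were 13.3% to 16.4% and entered no test. Total gene counts ran from 1880561 to 3985656, and such depth limits precision for members of a few CPM, for counting error only.

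Identifiers were matched to GENCODE M21 for 30934 of 31053 genes. The states were compared with edgeR 4.0.16 under R 4.3.3 (quasi-likelihood test, robust, TMM, Benjamini-Hochberg over 10181 genes). Genes were kept by filterByExpr with at least 10 counts in enough libraries and 15 in all. SE was taken as |log2 fold change|/√F from that test. The ratios were tested by an exact permutation test, two-sided, over 70 assignments. The script was tested on simulated data. Alternatives were DESeq2 1.42.0, RLE factors, other filters and thresholds, the replicate number as a block, and each library left out. Replicate numbers occur in both states, from 4 mice, and the sources do not say that a number marks a mouse. The replicates are described as biological.

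The members and all gene lists were chosen with earlier results of these data known. The text names all members, the other SLRP genes, from each related list at most 3 called genes in each direction by size of change together with *Tgfb1*, *Tgfb2*, *Col1a1*, *Col3a1*, *Dse* and *Vcan*, the 3 most similar genes of the 3 called members with the lowest adjusted *p*-values (log2 CPM with a prior count of 2), and the nearest tested gene on each side of each locus. Promoter windows are from RefSeq. Figures were drawn with Python 3.11.15 and matplotlib 3.10.9.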

Additional observations from a re-analysis of the deposited data

Results flagged for a closer look

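In 60 groups of 4 libraries, from 28 named genes and 2 ratios, 2 held a library far from the other 3, and chance alone sets about 1 in 20 such groups apart. *Podn* was at 17.66 CPM in SCA1-Low-FAPs replicate 3, a distance from the nearest other library of 0.836 of the range of its group. *Tgfb2* was at 55.79 CPM in SCA1-Low-FAPs replicate 2, at 0.881 of the range.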

How the results depend on the processing

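The number of SLRP genes called was 4 with DESeq2, RLE factors, at least 10 counts in every library, no limit on the fold change and the replicate block. It was 6 with no filter on low counts, 2 at an adjusted *p* under 0.01, and 3 to 5 with 1 library left out. The changes of the called members kept their direction in all 52 values under alternatives, and 2 of these, of *Dcn*, no longer passed. *Bgn* turned sign in 3 fits that left out 1 library, with values from −0.043 to 0.11. Over all genes 782 were called, 307 at an adjusted *p* under 0.01, 697 with the replicate block, 1065 with DESeq2, and 410 to 1017 with 1 library left out. The lowest values were without SCA1-Low-FAPs replicate 1 (417) or 4 (410). At an adjusted *p* under 0.01 the collagen list held 2 called genes, the growth factor and receptor list 0 and the list of other proteoglycans 2. With no filter on low counts the collagen list held 3, the growth factor and receptor list 2 and the proteases 1. With at least 10 counts in every library, which tests fewer genes, chondroitin and dermatan sulfate synthesis held 0 and growth factors and receptors 0. Leaving out 1 library gave 1 to 3 for chondroitin and dermatan sulfate synthesis, 2 to 5 for collagens, 0 to 2 for growth factors and receptors, 0 to 2 for proteases and 3 to 8 for other proteoglycans, and 1 throughout for keratan sulfate synthesis. DESeq2 called 9 other proteoglycans and the replicate block 7. The *Dcn* to *Bgn* difference of −2.05 had an exact *p* = 0.125 as a replicate block of sign flips, the smallest these allow, and ran from −2.33 to −1.80 with 1 library left out (exact *p* from 0.0286 to 0.0571, the latter without SCA1-High-FAPs replicate 3). The *Lum* to *Fmod* difference ran from −2.28 to −1.30. For libraries with the same number, deviations from the group means correlated over the tested genes at −0.0502 to 0.0067. For libraries with different numbers they correlated at −0.282 to 0.255, and 0 of the 4 SCA1-High-FAPs libraries correlated best with its own number. With 4 libraries in each group and deviations taken from their means, these correlations cannot tell whether a number marks a mouse. The cause of these changes was not tested.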
